A study of Mus musculus with 30 samples.

Results

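The regions described here are 3972 of the 14559 Esrrb ChIP-seq peaks of this study: intergenic peaks, near a gene, that the authors sort as Lost in mitosis. They were chosen by the authors' class 4 or 5 (2281 and 1691 peaks, together called Lost in the deposited peak table), by a centre outside every gene in the deposited exonic table, and by a distance of more than 1 kb and at most 50 kb from the nearest transcription start. The other Lost peaks were 964 within 1 kb of a start, 5423 inside gene bodies and 2220 intergenic peaks farther away. A further 761 intergenic peaks at the same distances belong to the classes called Bookmarked. The class names refer to signal in mitosis, and the classes may have been set from these same libraries. The ChIP-seq heights of the members may thus describe the choice and are given with no test.

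The study measured Esrrb binding by ChIP-seq in unsynchronised mouse embryonic stem (ES) cells, whose libraries are named interphase, and in cells held in mitosis, and it measured RNA in cells sorted by cell-cycle phase. All lines were of strain 129/Ola. EKOiE is an Esrrb knockout line with a doxycycline (DOX)-inducible Esrrb, kept with DOX or deprived of it. The ChIP-seq groups were interphase with DOX (4 libraries), mitosis with DOX (4), interphase after 48 h without DOX (2) and mitosis after 48 h without DOX (2). In both DOX groups replicate 2 came from E14Tg2a, a wild-type ES line, and all other libraries came from EKOiE. The RNA-seq used EKOiE cells carrying a Ccna-Gfp reporter of the cell cycle. Cells of each phase (early G1, late G1, G2) were collected under DOX and 24 h after its removal, in 3 libraries per group. The labels name no separate cultures or clones for the replicates, so the p-values measure the spread between these samples only.

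Esrrb is an orphan nuclear receptor that binds an extended half-site with the core AAGGTCA, often as TCAAGGTCA, and in ES cells it works beside Oct4, Sox2, Nanog and Klf4 to sustain naive pluripotency. Most factors leave the chromosomes at mitosis, and Esrrb is known for staying at a subset of its sites, which is called mitotic bookmarking. Intergenic sites kilobases from a start are where enhancers commonly lie, and the nearest gene is a convenient but imperfect guess at the gene an enhancer acts on.

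No genome of the files' build (mm9) was at hand, so the sequences shown are RefSeq promoter windows (build GRCm38.p6, 250 bases before to 50 after the start) of genes beside the members. They are shown because Fabp3 had the largest exonic fall among the member genes of at least 2 log2 CPM, and Gjb5 and Pim3 both fell and were the genes among those named with a core match. Capitals mark the match to AAGGTCA, or to its reverse complement TGACCTT, searched on both strands. A longer motif, TCAAGGTCA, contains the core.
Fabp3, chr4:130308488-130308787, plus strand, no match in this window: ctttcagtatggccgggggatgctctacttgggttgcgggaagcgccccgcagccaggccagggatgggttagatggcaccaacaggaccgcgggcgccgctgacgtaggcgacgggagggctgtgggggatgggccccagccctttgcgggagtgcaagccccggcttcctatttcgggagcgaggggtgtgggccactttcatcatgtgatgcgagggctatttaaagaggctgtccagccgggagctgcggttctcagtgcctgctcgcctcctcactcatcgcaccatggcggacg
Gjb5, chr4:127358115-127358414, minus strand, match 193 bases before the start: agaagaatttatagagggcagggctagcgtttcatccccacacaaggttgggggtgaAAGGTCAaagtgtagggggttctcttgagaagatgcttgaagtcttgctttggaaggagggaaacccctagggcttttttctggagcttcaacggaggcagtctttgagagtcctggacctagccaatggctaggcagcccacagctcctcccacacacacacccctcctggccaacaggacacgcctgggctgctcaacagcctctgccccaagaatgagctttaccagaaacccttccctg
Pim3, chr15:88861944-88862243, plus strand, match 171 bases before the start on the opposite strand: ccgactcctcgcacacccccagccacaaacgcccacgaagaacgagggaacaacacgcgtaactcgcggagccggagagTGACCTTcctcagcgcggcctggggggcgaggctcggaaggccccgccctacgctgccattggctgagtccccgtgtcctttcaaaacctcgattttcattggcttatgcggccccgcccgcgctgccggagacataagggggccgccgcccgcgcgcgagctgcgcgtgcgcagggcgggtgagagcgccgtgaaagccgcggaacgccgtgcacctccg
The core was present in 4.72% of 32851 RefSeq windows of this length and the longer motif in 0.423%. Of the 12 genes with the largest falls beside members, 8 had a window and 1 of these, Gjb5, held the core. Of the 12 with the largest rises, 9 had a window and 0 held it. These windows lie at the starts, not at the members, and a match is a description and not a binding site. The Gjb5 start also had a class 5 peak within 1 kb in the deposited table, which the distance limit keeps out of the set. Pdk4 among the falls, Ripply1 and Trerf1 among the rises, and Tcl1, Tinagl1 and Fos also had a peak within 1 kb of the start. The changes of these genes cannot be tied to the members alone. Peaks within 1 kb were counted only for genes with a window, so not for Wnt7b, Ntn1, Tgm2, Epas1, Gap43 or Esrp1. Lost peaks farther inside gene bodies were not counted for the named genes.

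The members lay mostly upstream of their nearest start: 2924 (73.6%) upstream and 1048 (26.4%) downstream, where the gene body itself removes candidate positions. The median distance was 15185.5 bp (quartiles 6995.5 and 28060 bp). By distance, 705 members lay within 5 kb, 699 between 5 and 10 kb, 1029 between 10 and 20 kb, and 1539 beyond that. Member peaks had a median width of 750 bp, against 1350 bp for the Bookmarked peaks at the same distances. Class 4 members were narrower (median 600 bp) than class 5 members (1050 bp). Another Esrrb peak lay within 10 kb of 1822 members (45.9%), and a Bookmarked peak lay that close to 357 (8.99%). Of all 14559 peaks 12579 are Lost, so most neighbours available are Lost too. The same shares were not taken for other peaks.

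**Figure D1:**
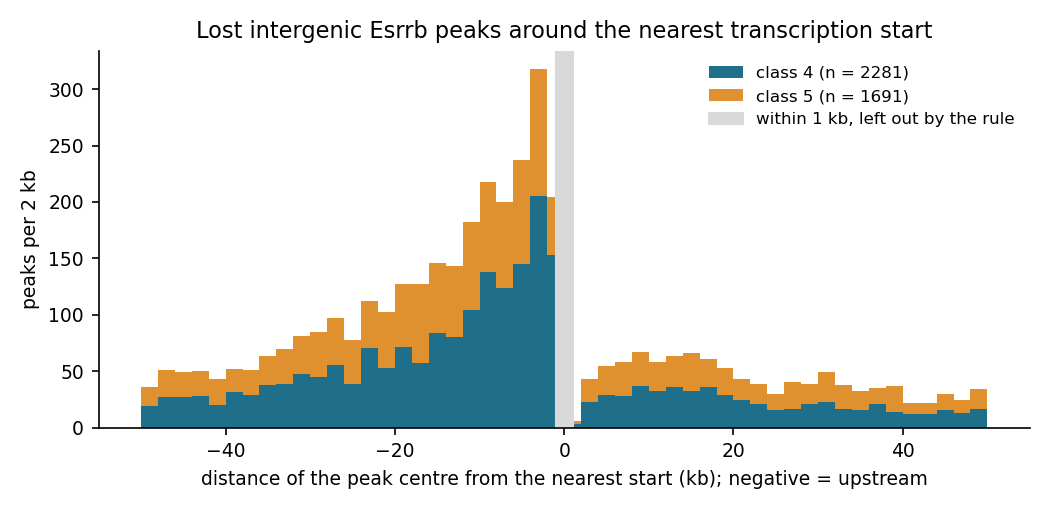
Number of Lost intergenic Esrrb peaks per 2 kb (vertical axis) by distance in kb from the nearest transcription start (horizontal axis, negative upstream), stacked by class. The 2924 upstream members crowd toward the start, the 1048 downstream members spread over the range, and the first kb is empty because the rule leaves it out.

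The members were nearest to 2754 of 20300 genes: 1982 genes had 1 member, 517 had 2, 148 had 3 and 107 had 4 or more. Members beside 1 gene share that gene and are not independent of each other. Chromosome 11 carried the most, 381 members (9.59%), followed by chromosome 4 with 334 (8.41%). Inhbb, which encodes an activin and inhibin subunit, had 9 members, Irf2bpl had 8, and Camk2n1, Fam222a and Foxp4 had 7 each.

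Esrrb height over the members was high in interphase and low in mitosis. Heights are log2 reads per kb of peak per M (10 to the power of 6) reads. The median over the members was 0.90, 1.78, 1.43 and 2.41 in the 4 interphase libraries with DOX, a mean of 1.63 ± 0.63 (SD, n = 4). In mitosis with DOX it was -1.03, -0.45, -0.53 and -0.48, a mean of -0.62 ± 0.28 (SD, n = 4). Every interphase median lay above every mitosis median, and the median of the per-peak differences, mitosis minus interphase, was -2.35. It was -2.26 over all peaks, so most of this drop is shared. Among other Lost peaks it was -2.17 at promoters, -2.32 inside gene bodies and -2.37 far from genes. Bookmarked peaks at the same distances had -1.74. After withdrawal the medians were -2.84 and -1.28 in interphase and -2.80 and -1.09 in mitosis, so the 2 withdrawn replicates differed from each other by more than 1 log2 unit in both states.

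Heights in the withdrawn libraries rest on few reads. The median member held 3 and 14 reads in the interphase withdrawn libraries and 2 and 22 in the mitosis ones, against 52 to 117 reads in interphase with DOX. Members with no read at all numbered 626 and 13 in the interphase withdrawn libraries and 909 and 1 in the mitosis ones. The first replicate of each withdrawn group was thus the emptier one. In mitosis, the median member height with DOX exceeded withdrawal by 1.25 log2 units, by 0.48 without withdrawn replicate 1 and by 2.07 without withdrawn replicate 2. The part of this difference between the 2 withdrawn libraries in each result was not tested.

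Class 4 members had higher medians than class 5 members in each DOX library, in interphase as well as in mitosis. In interphase with DOX the class 4 medians were 1.45, 2.36, 1.89 and 2.81 and the class 5 medians 0.30, 1.11, 0.97 and 2.02, and the per-peak difference between mitosis and interphase had a median of -2.29 in class 4 and -2.40 in class 5. Class 4 members had medians of -0.26, -0.07, -0.20 and -0.02 in mitosis with DOX, and class 5 members -2.0, -0.84, -0.86 and -1.12, with no overlap between the classes. All 4 mitosis DOX libraries exceeded both mitosis withdrawn libraries at 1738 members (43.8%), where 47.4% of all 14559 peaks did so. This share was 67.8% in class 4 (1546 peaks) and 11.4% in class 5 (192 peaks), and 98.8% in the Bookmarked peaks at the same distances. All 4 interphase DOX libraries exceeded all 4 mitosis DOX libraries at 3713 members (93.5%, all peaks 88%), and both interphase withdrawn libraries at 3963 (99.8%, all peaks 99.4%). How the classes were set is not stated and may have used these libraries, so nothing is read from these shares.

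**Figure D2:**
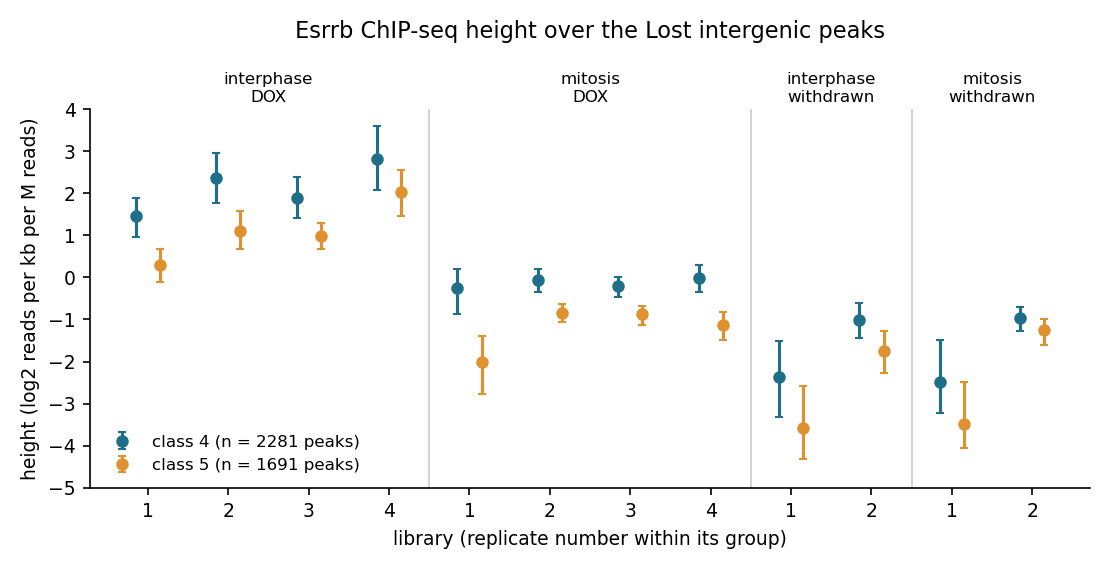
Esrrb ChIP-seq height over the members (vertical axis, log2 reads per kb per M reads) in each of the 12 libraries (horizontal axis), with points at the median and bars over the middle 50% of peaks, for class 4 and class 5. Class 4 lies near 0 in the mitosis libraries with DOX and class 5 below it in all 4, and replicate 1 is lower than replicate 2 in both withdrawn groups.

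The highest class 4 member lay 10.3 kb upstream of Wapal, which encodes the cohesin release factor, at chr14:35476651-35476950 (mm9). Its interphase DOX heights were 3.31, 4.66, 3.53 and 5.0, and its mitosis DOX heights were 0.29, 0.12, -0.09 and -0.54. The other members of this rank outside chromosome 18 lay beside Tfap2c, a transcription factor of germ cells and trophoblast (4.02 ± 1.14 in interphase with DOX, -0.01 ± 0.28 in mitosis, SD, n = 4), and beside Trim71 and Akap12. The highest class 5 member lay 13.5 kb upstream of Cyp7b1, an oxysterol hydroxylase, at chr3:18156301-18157350 (mm9). Its heights were 1.70, 3.35, 2.76 and 4.34 in interphase with DOX and -0.63, -0.90, -0.90 and -1.15 in mitosis. In both peaks the interphase and mitosis libraries with DOX did not overlap. Class 5 members beside Fam43a, Apln, Mgat3 and Esm1 followed, with interphase means from 2.53 to 2.61.

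Peaks next to the distance limits are given on both sides. Just beyond 1 kb lay members beside Ddah1, Prdm14 and Klf16 at 1004.5, 1006.5 and 1009.5 bp, with mean interphase DOX heights of 2.71, 3.22 and 0.13. Just within 1 kb, and so not members, lay peaks beside Fos, Vasp and Tlr5 at 999.5, 997.5 and 992.5 bp, with 0.75, 2.20 and 0.79. At the far limit, the members beside Tmem132d and Sox1 lay at 49963.5 and 49907.5 bp, with 1.36 and 0.71, and the peaks beside Fcgr1 and Asns at 50008.5 and 50018.5 bp, with 3.20 and 1.06.

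Exonic totals of the 18 RNA-seq libraries ran from 11.1 to 31.8 M counts, intronic totals from 6.10 to 20.8 M, and ChIP-seq totals recovered from the heights from 10.7 to 67.5 M reads. Esrrb itself, the withdrawn gene, had exonic counts per M counts (CPM) of 203 to 341 (median 278, n = 9) with DOX and 140 to 195 (median 173, n = 9) after 24 h without it. The groups did not overlap, and the log2 change was -0.68 ± 0.08 (SE, edgeR adjusted p = 3.75e-05). With counts summed over the phases and the replicate number as a block, the edgeR adjusted p was 0.00202. Here and below, n = 9 counts libraries that share replicate numbers across phases, not independent samples. The counts do not separate transgene from locus. The 5 ES cell markers (Pou5f1, Sox2, Nanog, Sall4 and Zfp42) summed to 2012 to 2861 CPM with DOX and 1943 to 2942 after withdrawal. Of 5 marker sums of other cell types, 1 lay higher in every library after withdrawal: the 8 tested of 14 fibroblast and feeder genes went from 379 to 537 CPM with DOX to 575 to 1066. The ranges of the 18 tested of 20 primitive endoderm genes overlapped (1302 to 1752 CPM, then 1618 to 2161). The sums for trophoblast (101 to 194 CPM, then 72.8 to 194), 2-cell-like (124 to 448, then 74.8 to 421) and mesendoderm and neural genes (120 to 179, then 122 to 196) overlapped widely. In the primitive endoderm sum Lamc1 (180 to 422 CPM, then 402 to 662) and Lrp2 (185 to 312, then 371 to 591) rose, while Apoe (-0.43) and Gata6 (-1.38) fell on the log2 scale. Most of the fibroblast and feeder sum was Fn1, fibronectin (261 to 398 CPM with DOX, 444 to 876 after withdrawal), while Postn, S100a4 and Col3a1 had at most 3, 3 and 7 counts in any library. In bulk RNA, fewer cells of a type and less RNA per cell cannot be told apart, and the part of other cell types in the results was not tested.

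Genes beside the members both fell and rose after withdrawal. Of the 2754 genes, 2294 passed the filter on low counts. In 1 edgeR fit of the 18 libraries, averaged over the 3 phases, 276 of these fell and 241 rose, 22.5% together, against a background of 16.9% of the 14092 genes tested. The balance moved with the settings: 328 fell and 212 rose with library-size scaling alone, and 225 fell and 250 rose with no filter on low counts. Among all genes tested the falls were 8.47% and the rises 8.43%, and among member genes 12% and 10.5%. The median log2 change over the tested member genes was 0.00, as over all genes. All 9 withdrawn libraries lay below all 9 DOX libraries in 57 member genes (2.48%, background 1.5%) and above them in 54 (2.35%, background 1.55%).

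The number of genes called depended on how the replicates entered. Libraries of 1 replicate number deviated together, also across phases, so the 18 libraries are not 18 independent samples. With the replicate number as a block, 522 member genes fell and 476 rose (43.5%, background 36%). With counts summed over the phases, 3 samples against 3, 5 fell and 1 rose (0.262%, background 0.128%). With summed counts and the block, which fits the paired samples, 228 fell and 206 rose (18.9%, background 12.7%), and 367 of these were called in the same direction in the 18-library fit (71% of the latter and 84.6% of the former). Of the member genes, the summed counts with block thus called 9.94% lower and 8.98% higher, against backgrounds of 6.07% and 6.63%.

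The median expression of the tested member genes was 4.50 log2 CPM, and that of all tested genes 4.35. In each of 6 bins of expression the share of member genes called exceeded that of the other genes, from 14.9% against 9.48% in the lowest bin to 26.4% against 18% in the fourth. With summed counts and the block the smallest gap was in the lowest bin, 8.73% against 7.12%. Genes with no Esrrb peak nearest to them within 50 kb were called in 14.3% of 8890 cases. Genes beside a Bookmarked peak were called in 22.4% of 1188, and member genes with no Bookmarked peak nearest in 22% of 1911. The share was 22.5% of 848 for genes with a Lost promoter peak and 22.8% of 2538 for genes nearest to a Lost gene-body peak. With summed counts and the block these 2 shares were 18.8% and 18.6%, against 18.9% for member genes. The higher share is thus not particular to the members. These sets share genes with each other, and the differences between them were not tested.

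Falls and rises were unequal in number where members lay downstream. Where all members lay upstream, 11.6% of 1661 genes fell and 12.3% rose. Where all lay downstream, 11.9% of 489 fell and 5.52% rose, and where they lay on both sides, 18.1% of 144 fell and 6.94% rose. With summed counts and the block the downstream values were 10% and 4.5% and the upstream ones 9.45% and 10.4%. The genes also differed in span, with medians of 29.6 kb for upstream members only, 8.79 kb for downstream only and 8.61 kb for both, and the part of gene span was not tested.

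By distance, genes whose nearest member lay within 5 kb fell in 11.7% of 571 cases and rose in 11.2%. Between 5 and 10 kb, 14.9% of 451 fell and 10.4% rose (13.5% and 7.98% with summed counts and the block). Between 10 and 20 kb, 12.6% of 588 fell and 10.4% rose, and beyond 20 kb 9.94% of 684 fell and 10.1% rose. Genes with 1 member fell in 11.4% and rose in 9.75%, genes with 2 in 12.2% and 11.5%, and genes with 3 members in 18% and 14.8% of 128. With 4 or more the shares were 13.5% and 12.5% of 104, so there was no steady increase with number. By the interphase height of the highest member, the share of genes that fell was 8.54%, 13.6%, 11.7% and 14.3% in 4 sets of about equal size, from the lowest to the highest, with no steady increase. The share that rose was 9.76%, 9.42%, 12.7% and 10.1%. Median expression was 3.87 log2 CPM in the lowest set and 4.98 in the highest.

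**Figure D3:**
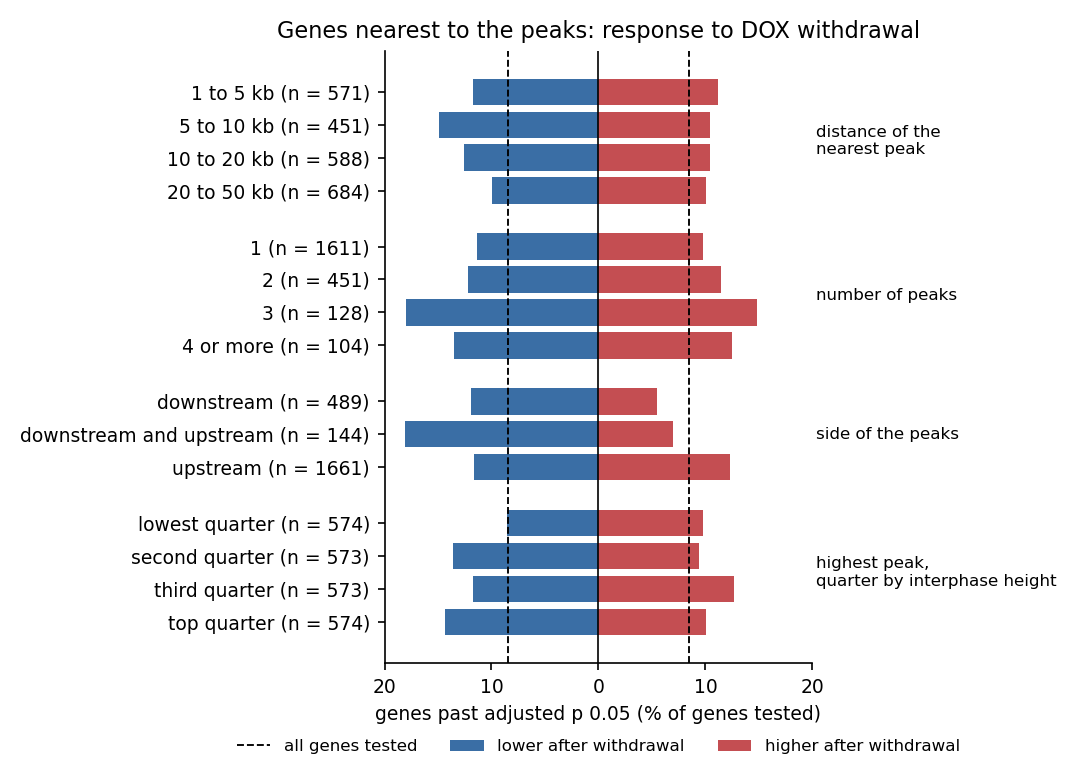
Share of genes beside members that passed adjusted p 0.05 in the 18-library edgeR fit (horizontal axis, % of genes tested, lower after withdrawal to the left and higher to the right), by distance of the nearest peak, number of peaks, side, and height of the highest peak. Dashed lines mark all genes tested (8.47% and 8.43%), and the downstream groups are the ones with rises (5.52% and 6.94%) under the line.

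The largest fall among the genes with a mean of at least 2 log2 CPM was that of Fabp3, the heart-type fatty acid binding protein (NM_010174, chr4:129986021-129992707, mm9). Fabp3 had 4 members, the nearest 3.37 kb upstream, and 2 Bookmarked peaks. Its CPM with DOX was 108, 66.7 and 36.4 in early G1, 77.2, 67.8 and 41.3 in late G1, and 70.3, 62.0 and 38.1 in G2. After withdrawal it was 28.8, 20 and 19.7, 23.4, 20.7 and 10.1, and 11.5, 18.9 and 10.6. All 9 withdrawn values lay below all 9 DOX values, and replicate 3 was the lowest with DOX in each phase. The log2 change was -1.82 ± 0.22 (SE, edgeR adjusted p = 6.56e-05). The edgeR adjusted p was 6.72e-05 with summed counts and the block, and 0.0495 with summed counts alone.

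The Fabp3 members lay 3.37, 9.07, 11.2 and 16.3 kb upstream, and the farther pair was the higher one in interphase. The member at chr4:129969301-129970050 had heights of 1.41, 2.43, 2.34 and 4.46 in interphase with DOX and -0.40, 0.70, 0.56 and 0.69 in mitosis. The one at chr4:129981901-129983400, nearest to the start, had -0.10, 0.65, 0.62 and 1.75 in interphase and -2.36, -0.93, -0.93 and -1.21 in mitosis. In both, interphase and mitosis libraries did not overlap.

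Klhdc7a, a gene of a kelch-domain protein, had 4 members and no Bookmarked peak nearest to it within 50 kb. Its CPM ran from 5.64 to 7.76 (median 7.02, n = 9) with DOX and from 1.69 to 4.74 (median 2.56, n = 9) after withdrawal. The groups did not overlap, and the log2 change was -1.40 ± 0.14 (SE, edgeR adjusted p = 9.98e-06). For Klhdc7a the edgeR adjusted p was 0.000883 with summed counts and the block, and 0.0495 with summed counts alone. Igsf21, which lies near it on chromosome 4, fell by 1.08 on the log2 scale and had 1 member.

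Gjb5, which encodes a connexin, a gap junction protein, had 3 members at 2.52, 7.17 and 8.37 kb upstream. It ran from 17.3 to 26.1 CPM (median 20.7, n = 9) with DOX and from 6.70 to 13.5 (median 10.4, n = 9) without, with no overlap. Its log2 change was -1.06 ± 0.13 (SE, edgeR adjusted p = 7.77e-05). Summed counts and the block gave an edgeR adjusted p of 0.00148, and summed counts alone 0.0564.

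Wnt7b, a Wnt ligand with 2 members, ran from 10.2 to 16.5 CPM (median 13.1, n = 9) with DOX and from 4.04 to 8.93 (median 6.25, n = 9) without, with no overlap. It changed by -1.13 ± 0.12 (SE, edgeR adjusted p = 1.47e-05). Pdk4, the kinase that holds back pyruvate dehydrogenase, ran from 7.89 to 11.1 CPM and from 3.19 to 6.43. Its log2 change was -1.07 ± 0.13 (SE, edgeR adjusted p = 7.6e-05). Summed counts and the block gave edgeR adjusted p of 0.000883 for Wnt7b and 0.00195 for Pdk4. Summed counts alone gave 0.0495 and 0.0940. Also among the 12 largest falls were Jakmip1 (-1.31), Ntn1, a secreted guidance cue (-1.30), Tgm2, transglutaminase 2 (-1.22), Wfdc2 (-1.08) and She, an SH2 adaptor (-1.01). Of the 12, all passed with summed counts and the block, 3 with summed counts alone, and 8 had groups that did not overlap. Besides their members, 3 of the 12 had at least 1 Bookmarked peak nearest to them.

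The largest rise at this expression level was that of Epas1, which encodes the hypoxia-inducible factor HIF-2 alpha. Its 2 members, both of class 5, lay 8.15 and 40.2 kb upstream. CPM with DOX was 12.7, 13.9 and 13.6 in early G1, 9.4, 13.4 and 13.4 in late G1 and 11.0, 11.3 and 14.2 in G2. After withdrawal it was 41.2, 29.4 and 25.9, 46.6, 33.9 and 25.9, and 32.4, 24.4 and 24.6. The 9 withdrawn values all lay above the 9 DOX values. The log2 change was 1.32 ± 0.13 (SE, edgeR adjusted p = 9.87e-06). For Epas1 the edgeR adjusted p was 0.00148 with summed counts and the block, and 0.0495 with summed counts alone.

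Gap43, a protein of growing axons, went from 2.91 to 5.65 CPM (median 4.25, n = 9) to 6.08 to 10.1 (median 8.53, n = 9). Its groups did not overlap, and it changed by 0.96 ± 0.13 (SE, edgeR adjusted p = 0.000193). Arid1a, a subunit of BAF chromatin remodelling complexes, went from 37.5 to 60.4 CPM to 74.7 to 152. It changed by 0.96 ± 0.14 (SE, edgeR adjusted p = 0.000366). Summed counts and the block gave edgeR adjusted p of 0.00238 for Gap43 and 0.0112 for Arid1a. Summed counts alone gave 0.0835 and 0.107. Dhx9, an RNA helicase, went from 129 to 211 CPM to 258 to 403 (0.88), and Esrp1, a splicing regulator of epithelial cells, from 21.8 to 28.6 CPM to 31.8 to 54.0 (0.87). Both had groups that did not overlap.

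Tcf7l1, the Wnt-pathway factor that represses pluripotency genes, went from 2.22 to 5.46 CPM to 4.53 to 12.2. These ranges overlapped, and the withdrawn library was higher in 8 of 9 pairs. The change was 0.94 ± 0.23 (SE, edgeR adjusted p = 0.0103). For Tcf7l1 the edgeR adjusted p was 0.0273 with summed counts and the block, and 0.234 with summed counts alone. The remaining rises were Tenm4 (1.08), Gpc4 (0.88), Ripply1 (0.88), Trerf1 (0.86), Sox13 (0.86) and Scaf4 (0.86). All 12 passed with summed counts and the block, 1 with summed counts alone (Epas1), and 6 had groups that did not overlap. Besides their members, 2 of the 12 had at least 1 Bookmarked peak nearest to them.

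**Figure D4:**
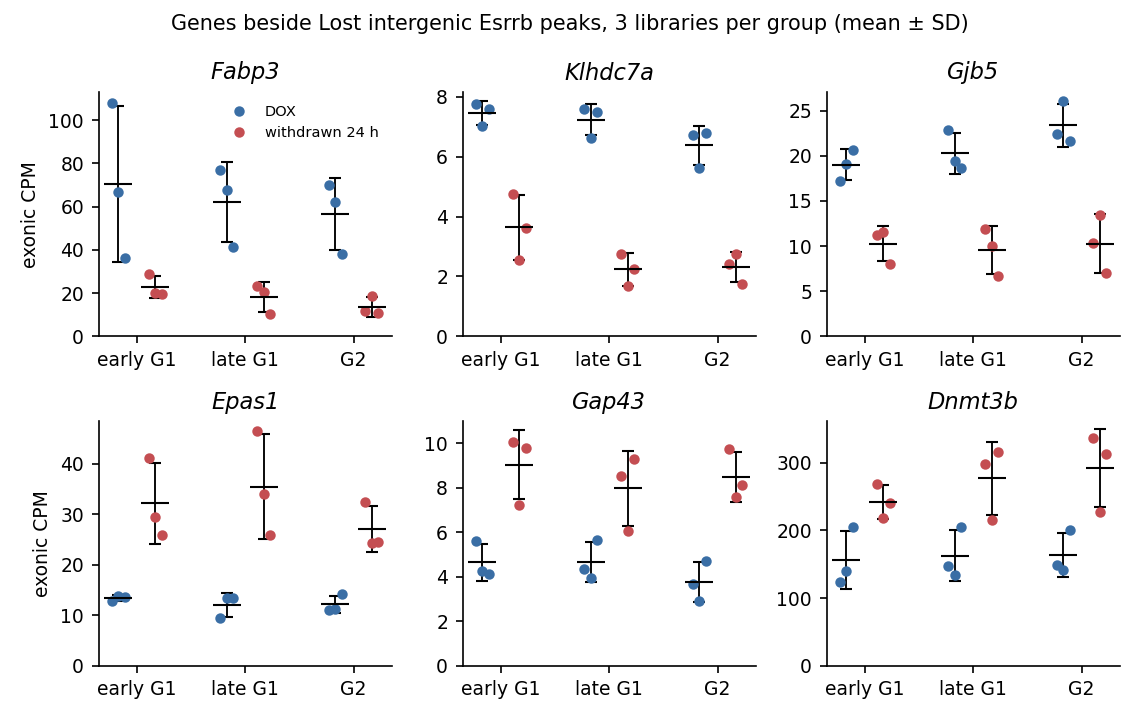
Exonic CPM (vertical axes) of 6 genes beside members by phase, under DOX and 24 h after its removal. Points are the 3 libraries of each group and bars the mean ± SD; Fabp3, Klhdc7a and Gjb5 are lower and Epas1, Gap43 and Dnmt3b higher after withdrawal, with no overlap in any phase.

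Intronic counts, which come largely from unspliced RNA, changed in fewer genes. Of 2137 member genes tested, 72 fell and 53 rose (5.85%, background 3.58%; by direction, backgrounds 1.62% and 1.95%). With the block 232 fell and 183 rose (19.4%, background 15.3%), with summed counts and the block 68 fell and 53 rose (5.66%, background 3.57%), and with summed counts alone edgeR called 0, with 220 genes at an unadjusted p under 0.05. DESeq2 on the 18 libraries called 184. Leaving out 1 library gave 71 to 133 calls, with under 80 calls without early G1 withdrawn replicate 3 (79), early G1 DOX replicates 1 (78) or 2 (72), late G1 DOX replicate 2 (71) or G2 DOX replicate 2 (74).

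Among the genes with the largest exonic falls, 6 of the 11 tested on introns also passed there, and 7 of the 12 largest rises did. Fabp3 (-1.74 ± 0.19), Wnt7b (-1.06 ± 0.11) and Gjb5 (-1.44 ± 0.30, log2 ± SE) had intronic changes near the exonic ones. Epas1 had 0.34 ± 0.08 on introns against 1.32 ± 0.13 on exons. Dhx9 had 0.08 ± 0.15 on introns (edgeR adjusted p = 0.824) and Scaf4 -0.08 ± 0.09 (edgeR adjusted p = 0.682). The difference between exonic and intronic change was not tested.

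The largest intronic changes also held genes not in the exonic ranking. Spaca7 fell by 2.90 on the log2 scale (edgeR adjusted p = 0.0263), but its intronic CPM ran from 0 to 6.33 with DOX and from 0 to 2.42 without. Tinagl1, a basement membrane protein gene, had -1.37 ± 0.19 on introns and -1.75 ± 0.22 on exons. That exonic fall was larger than the -1.40 of Klhdc7a, which was ranked. The exonic ranking took only called genes with a mean log2 CPM of at least 2, and Tinagl1 was not among them. Tlr2 had -1.24 on introns and -0.47 on exons, and did not pass on exons without late G1 DOX replicate 2 (-0.41). The rises were Gap43 (1.24), 4933402J07Rik (1.21), Apol6 (1.04), Izumo2 (1.02) and Lef1 (0.93), of which 4933402J07Rik did not pass with summed counts and the block (adjusted p = 0.082). Genes that overlap another gene or an antisense RNA are uncertain, since the strand setting of the counting is not stated.

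**Figure D5:**
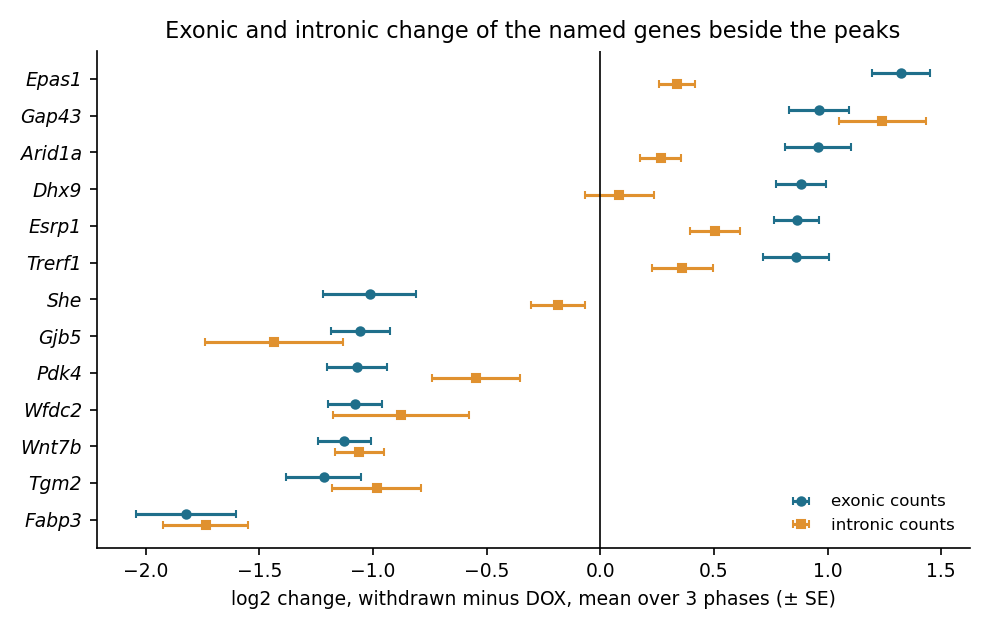
Log2 change after withdrawal, mean over 3 phases (horizontal axis, ± SE), on exonic and intronic counts for those 13 of the genes with the largest falls and rises that were tested on introns and whose exonic CPM did not overlap between DOX and withdrawal. Fabp3 and Wnt7b lie close on both, while Epas1 is at 1.32 on exons and 0.34 on introns, and Dhx9 lies near 0 on introns.

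The genes with the most members had small changes or none that passed. Inhbb, with 9 members, had 6.02 to 21.5 CPM (median 11.7, n = 9) with DOX and 4.96 to 16.5 (median 10.3, n = 9) without, and its log2 change of -0.37 ± 0.28 (SE) did not pass (edgeR adjusted p = 0.385, 0.0308 with the block, 0.128 with summed counts and the block). Irf2bpl, with 8, had -0.20 ± 0.10 (edgeR adjusted p = 0.173, 0.0269 with the block, 0.189 with summed counts and the block). Camk2n1, an inhibitor of CaM kinase II, had -0.68 ± 0.17 (edgeR adjusted p = 0.00965, and 0.054 with summed counts and the block). Foxp4, a forkhead factor, rose by 0.38 ± 0.09 on the log2 scale (edgeR adjusted p = 0.00786, and 0.0491 with summed counts and the block). Fam222a had 0.20 ± 0.21 (edgeR adjusted p = 0.542).

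Naive pluripotency genes beside members mostly did not pass the test. Of 16 tested, with 39 members between them, 3 fell, among them Tcl1 and Tbx3, and 1 rose (Dppa2), and their median log2 change was -0.17 where that of all 28 list genes was also -0.17. Of the whole list 8 fell and 1 rose, where 8.47% of all genes tested fell and 8.43% rose. Tbx3, a T-box factor with 6 members, went from 15 to 40.3 CPM (median 30, n = 9) to 12 to 21.6 (median 18.8, n = 9). It changed by -0.66 ± 0.19 (SE, edgeR adjusted p = 0.0234), and did not pass without early G1 DOX replicate 3 (-0.52), late G1 DOX replicate 2 or 3 (-0.61 and -0.60), G2 DOX replicate 3 (-0.55) or G2 withdrawn replicate 1 (-0.61). Tcl1, an Akt cofactor, changed by -0.38 ± 0.09 and Dppa2 by 0.36 ± 0.08 (SE, edgeR adjusted p = 0.0115 and 0.00386). Summed counts and the block gave edgeR adjusted p of 0.00895 for Tbx3, 0.0245 for Tcl1 and 0.0178 for Dppa2.

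Of 13 core pluripotency genes tested beside members, 4 rose (Tcf7l1, Sall1, Rif1 and Sall4) and 0 fell, and of all 25 on the list 10 rose and 1 fell. Among all genes tested 8.43% rose and 8.47% fell, and among member genes 10.5% and 12%. Sall4, a zinc-finger factor, went from 79.8 to 117 CPM to 110 to 161, a change of 0.42 ± 0.10 (SE, edgeR adjusted p = 0.00768). Sall1 (0.30) and Sall4 did not pass with summed counts and the block (adjusted p = 0.0614 and 0.0654), and Rif1 (0.33) had an edgeR adjusted p of 0.0484. In any phase, leaving out replicate 1 or 2 with DOX or replicate 2 or 3 without it ended the call of Rif1 (0.29 to 0.36), as did leaving out replicate 1 with DOX in late G1 or G2 for Sall1 (0.26 and 0.27). Of 12 formative and primed genes beside members, 3 rose (Dnmt3b, Lef1 and Zic5) and 0 fell, and of all 21 tested on the list 7 rose and 0 fell. Dnmt3b, a de novo DNA methyltransferase, went from 124 to 206 CPM to 215 to 336 without overlap (0.74 ± 0.12, SE, edgeR adjusted p = 0.000877), and Lef1, a Wnt-pathway factor, from 0.545 to 2.04 CPM to 1.56 to 9.55 (1.77 ± 0.30, SE, edgeR adjusted p = 0.000883).

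The signalling lists held few tested genes beside members, so the share called in each rests on few genes. Among all genes tested 8.47% fell and 8.43% rose, and among member genes 12% and 10.5%. On the whole lists, 6 of 19 LIF and STAT3 genes fell and 0 rose. Of 18 Wnt pathway genes 2 fell and 2 rose, and of 18 FGF and ERK genes 2 fell and 3 rose. Of 10 LIF and STAT3 genes, 3 fell and 0 rose: Pim3 (-0.47 ± 0.09) and Pim1 (-0.26 ± 0.08, log2 ± SE), survival kinases with 5 and 6 members, and Pramel7 (-0.98 ± 0.25). Pim3 ran from 187 to 232 CPM with DOX and from 114 to 167 without, with no overlap, and Pim1 did not pass with summed counts and the block (adjusted p = 0.0766) or without any 1 of 7 libraries (-0.25 to -0.21): early G1 DOX replicate 2, early G1 withdrawn 3, late G1 DOX 1 or 2, late G1 withdrawn 2 or 3, or G2 DOX 1. Of 7 Wnt pathway genes, Wnt7b fell and Tcf7l1 and Lef1 rose. Of 11 FGF and ERK genes, Fos, an immediate-early factor, fell (-0.84 ± 0.12), and the feedback inhibitors Spry4 (0.69 ± 0.09) and Spred2 (0.40 ± 0.11) rose, Spred2 without passing with summed counts and the block (adjusted p = 0.0635).

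Of 4 genes of oxidative metabolism under ERR receptors, Fabp3 and Pdk4 fell and 0 rose, and of the whole list 7 of 33 fell and 2 rose. Among all genes tested 8.47% fell and 8.43% rose. Among lists of other cell types, 3 of 7 primitive endoderm genes fell (Apoe, Gata6 and Amn) and 1 rose (Lrp2), while of the 18 tested on the whole list 3 fell and 3 rose. Of 6 trophoblast genes Tead4 fell and Gata3 rose. Amn and Gata3 did not pass with summed counts and the block (edgeR adjusted p = 0.0792 and 0.107). The lists of mesendoderm and neural and of fibroblast and feeder genes had 2 and 1 tested genes beside members, of which edgeR called 0. No 2-cell-like gene was tested beside a member.

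Single phases gave few calls, with the most in G2. In early G1, 3 member genes fell and 1 rose (0.174%, background 0.163%), in late G1 16 fell and 7 rose (1%, background 0.461%), and in G2 31 fell and 11 rose (1.83%, background 0.972%). With the block the counts were 105 and 58 (7.11%, background 4.03%), 159 and 146 (13.3%, background 9.04%), and 192 and 180 (16.2%, background 11.2%). With library-size scaling alone late G1 had 16 falls and 2 rises and G2 33 and 6, and with DESeq2 late G1 had 49 and 44 and G2 65 and 54. The early G1 count fell from 4 to between 0 and 2 without any early G1 library but DOX replicate 3, without any late G1 DOX library, and without late G1 withdrawn replicate 2, G2 withdrawn replicate 3 or G2 DOX replicate 1 or 2, and was 9 without G2 withdrawn replicate 1. The late G1 count fell from 23 to between 3 and 13 without any late G1 library, replicate 2 of either early G1 group, G2 withdrawn replicate 3 or G2 DOX replicate 2 or 3. The G2 count fell from 42 to 5, 8, 7 and 6 without G2 withdrawn replicates 1 or 3 or G2 DOX replicates 1 or 2.

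No member gene differed in its response between phases at an adjusted p of 0.05, so the unequal counts are not a shown difference between phases. For late G1 against early G1, G2 against early G1 and G2 against late G1, edgeR called 0 of 2294 member genes. It also called 0 of all 14092 genes tested, so the 0 is not particular to member genes. An unadjusted p under 0.05 was found in 8, 13 and 8 member genes (22, 33 and 35 with the block). Without the block these were 0.349%, 0.567% and 0.349%, against 0.255%, 0.454% and 0.511% of all genes tested. A lack of calls does not show equal responses. DESeq2 also called 0, with 4, 8 and 9 member genes at an unadjusted p under 0.05. With DOX, the same pairs of phases gave 0 calls in edgeR, among member genes and among all genes tested. An unadjusted p under 0.05 was found in 21, 44 and 27 member genes (0.915%, 1.92% and 1.18%, all genes 0.965%, 2.26% and 1.23%). DESeq2 gave 0 calls, with 20, 48 and 29 member genes at an unadjusted p under 0.05. Fabp3 changed by -1.62, -1.78 and -2.06 and Epas1 by 1.26, 1.55 and 1.16 on the log2 scale in early G1, late G1 and G2.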

How the data were processed

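RNA-seq was deposited as raw counts over exons and over introns per RefSeq gene, per the file headers. The deposited peak table gives heights in log2 reads per kb per M reads, a unit read from the values: whole reads were recovered for 100% of values (within 0.05 read), with 0.9 read standing for none. Mitosis libraries are the columns named noco. Bowtie, CASAVA 1.8, DESeq2 and mm9 are named, without roles, in the submitters' processing notes. The sources used here do not give the peak caller, the class rule, the counting tool or its strandedness.

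Peaks were assigned by their centre to the nearest start in the exonic table. Symbols turned into dates (27) were restored by accession. One fit of 6 group means used edgeR 4.0.16 (R 4.3.3) with filterByExpr, TMM, quasi-likelihood tests and Benjamini-Hochberg adjustment at 0.05 over all genes. It was tested on simulated data. Replicate numbers pair the samples: deviations of same-numbered libraries with and without DOX correlated above 0.1 in each of 9 pairs, on exons and introns. Blocked, DESeq2 1.42.0, scaling, filter and leave-one-out fits were alternatives. Summed counts were added after seeing the data, because libraries of 1 number and DOX state correlated across phases (median r 0.64 on exons).

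The members, gene lists and tests were chosen with earlier results of these data known. Named peaks were the 5 highest of each class, 3 at each side of each limit and those beside naive or core genes that passed. Named genes were the 12 largest falls and rises among those with a mean log2 CPM from 2 upward, the 5 genes with most members, list genes that passed, and the 5 largest intronic falls and rises. No sequence or coordinate is printed for chromosome 18, and 1 named gene is not reported here.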

Additional observations from a re-analysis of the deposited data

Results flagged for a closer look

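In the mitosis group with DOX, replicate 1 stood apart from the other 3 libraries: its median height over the members was -1.03, where the others lay at -0.45, -0.53 and -0.48. The same library was apart at 1 of the 10 highest members, the peak beside 8030462N17Rik, with a height of -0.62 against 0.20, 0.22 and 0.32. In these 26 groups of 4 values, chance flags about 1 in 20. Over all 14559 peaks, which were not among these groups, mitosis DOX replicate 1 was also lowest, at -0.95 against -0.37, -0.47 and -0.42. Its low median is thus not particular to the members. Without this library the median difference, mitosis minus interphase, over the members was -2.16, against -2.35 with all 8.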

How the results depend on the processing

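The median height difference between mitosis and interphase with DOX was -0.23 after centring each library on its median over all peaks, that between DOX and withdrawal in interphase 0.085, and that between DOX and withdrawal in mitosis reversed to -0.14, since centring removes what the members share with all peaks. Leaving out each ChIP-seq library in turn gave -2.60 to -2.09, 2.95 to 4.48 and 0.48 to 2.07 for the 3 differences. For the mean response, the replicate block gave 998 calls among member genes and 5068 among all genes, and counts summed over the phases gave 6 and 18, against 517 and 2382. Summed counts with the replicate block, DESeq2, library-size scaling, no filter, the 20 kb limit and the genes with no Bookmarked peak gave 380 to 607 calls among member genes. Leaving out each library gave 422 to 543 calls among member genes and 1846 to 2599 among all genes. For introns, the replicate block gave 415 calls and summed counts 0, and leaving out each library gave 71 to 133. In early G1, late G1 and G2, the replicate block gave 163, 305 and 372 calls, DESeq2 gave 42, 93 and 119, no filter gave 2, 15 and 37, and leaving out each library gave 0 to 9, 3 to 28 and 5 to 50. Among member genes, differences between phases in the withdrawal response, and differences between phases with DOX, stayed at 0 calls in all settings run. Phases after withdrawal were not compared with each other. Of the 47 genes chosen by the naming rule and tested on exons, 40 lost their call with summed counts and 5 with summed counts and the replicate block (Camk2n1, Pim1, Sall1, Sall4 and Spred2), and Inhbb and Irf2bpl gained one with the block but not with summed counts and the block. The block on 18 libraries changed no other of these calls. Amn and Gata3, named from the lists of other cell types, also lost their calls with summed counts and the block. No named gene reversed. The causes were not tested. ChIP-seq heights gave no test, so no paired analysis of them was made. Withdrawn ChIP-seq heights are limited by medians of 2 to 22 reads per member, and empty members are set to 0.9 read.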
